A study of Mus musculus with 6 samples.

Results

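Chemokine receptor genes were followed through cultures of mouse lung fibroblasts that had received a Hedgehog agonist. The set holds 9 genes of the 22180 named genes on the arrays: Cxcr1, Cxcr2, Cxcr3, Cxcr4, Ccrl2, Ccr1, Ccr1l1, Ccr2 and Ccr7. It was put together with the differences between the treated and control arrays already known, Cxcr1 and Ccrl2 being among the largest rises, so the values of these genes in this comparison are a description and support nothing by themselves. Each of the 9 genes had 1 probe set with a single gene symbol, and that probe set was used. The cells came from digested lungs of wild-type C57BL/6 male mice aged 8 weeks. They were enriched for fibroblasts, not sorted for them, and passaged at most 3 times. The 3 vehicle wells and the 3 purmorphamine wells (5 µM, written 5um in the labels, for 24 h) each gave 1 Affymetrix array. Purmorphamine activates Smoothened, the membrane protein that carries Hedgehog signals. No label says from how many mice the wells came, so every p-value refers to variation from well to well, part of which may be technical.

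Chemokine receptors are membrane proteins that couple to inhibitory G proteins and guide cells along gradients of secreted chemokines. They are named after the class of ligand they bind, CXC or CC. A few atypical members bind ligands without the classical G-protein signal and so hold, present or remove them. In the lung, most of these receptors are known from leukocytes, among them neutrophils, monocytes, macrophages, dendritic cells and lymphocytes. Cxcr4 is also made by other cell types, including mesenchymal and endothelial cells.

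Values are log2 signals after robust multi-array averaging (RMA), and a difference is the purmorphamine mean minus the vehicle mean, so 1 log2 unit is a doubling. A gene was called when its adjusted p in the limma fit over all genes was under 0.05. Of the 9 receptors, 3 rose (Cxcr1, Ccrl2 and Cxcr4), 3 fell (Ccr1, Ccr2 and Ccr1l1) and 3 were not called (Cxcr2, Cxcr3 and Ccr7). Over all genes tested 14.3% were called, 7.18% as rises and 7.16% as falls. The median difference was -0.07 over the 9 receptors and -0.01 over all genes. The purmorphamine values lay wholly above the vehicle values in 4 receptors (17.1% of all genes) and wholly below them in 3 (17.1% of all genes), and 34.2% of all genes had groups that did not overlap in either direction. Nothing is read from these shares, because the choice of genes used the same comparison. Array lower quartiles lay between 5.03 and 5.08 and medians between 6.34 and 6.39, and a gene under the lower quartile may be at background. Shares over all genes include dim genes, whereas the ligand, downstream, macrophage and fibroblast lists below lay mostly above the array median. In whole cultures, fewer cells of a type and less RNA per cell cannot be told apart.

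**Figure D1:**
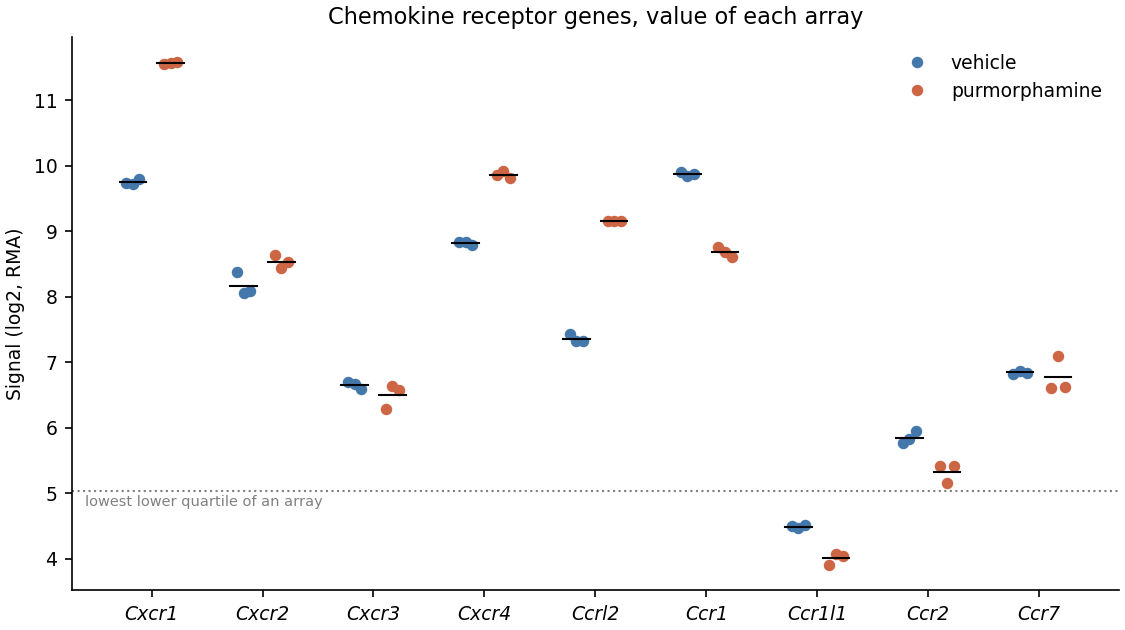
Log2 RMA signal of the 9 chemokine receptor genes on each array, vehicle in blue and purmorphamine in orange, with the group mean as a black bar (n = 3 per group) and the lowest lower quartile of an array, 5.03, as a dotted line. The purmorphamine points of Cxcr1, Ccrl2, Cxcr4 and the uncalled Cxcr2 sit above all vehicle points. Those of Ccr1, Ccr2 and Ccr1l1 sit below them, and those of Cxcr3 and Ccr7 overlap them.

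Among the CXC receptors, Cxcr1 rose most. Cxcr1 encodes a receptor for the CXC chemokines that attract neutrophils. Its signal was 9.74, 9.73 and 9.80 on the vehicle arrays and 11.56, 11.58 and 11.59 on the purmorphamine arrays. The treated arrays lay within a narrow band far above every control array. The difference was 1.82 (SE 0.05, 95% interval 1.70 to 1.94, limma adjusted p = 1.28e-05), or 3.53-fold, which placed Cxcr1 at rank 6 of 22180 genes ordered by rise.

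Cxcr2, which binds the same class of chemokines and is the main receptor by which they recruit mouse neutrophils, lies next to Cxcr1 on chromosome 1 in the RefSeq gene table. Its signal was 8.38, 8.05 and 8.08 with vehicle and 8.64, 8.44 and 8.54 with purmorphamine. The groups did not overlap, but vehicle replicate 1 came close to the lowest treated array. The difference of 0.37 (SE 0.10, 95% interval 0.13 to 0.61) missed the threshold at an adjusted p of 0.057. It was called under 6 of the 14 other settings, among them the one without vehicle replicate 1, where the difference was 0.47 and the adjusted p 0.019. The interval of Cxcr2 ends far under that of Cxcr1, and on its other side Cxcr2 neighbours Rufy4, which differed by 0.06 and was not called.

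Cxcr4, the receptor for Cxcl12 in cell retention and homing, measured 8.83, 8.84 and 8.79 with vehicle and 9.87, 9.92 and 9.82 with purmorphamine. All treated arrays were about 1 log2 unit above all control arrays. Cxcr4 rose by 1.05 (SE 0.05, 95% interval 0.92 to 1.17, adjusted p = 9.57e-05), or 2.07-fold, at rank 23 of the rises. Only 36 genes, 0.162% of those tested, were called as rises of at least 2-fold, and Cxcr1, Ccrl2 and Cxcr4 are 3 of them.

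Cxcr3, the receptor of activated T cells for interferon-induced chemokines, measured 6.70, 6.68 and 6.59 with vehicle and 6.29, 6.64 and 6.57 with purmorphamine. The groups overlapped, with purmorphamine replicate 1 lowest. The difference of -0.16 had a 95% interval of -0.38 to 0.07 (adjusted p = 0.35), which holds 0 as well as a fall of up to 0.38. Without purmorphamine replicate 1 the difference was -0.05.

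Ccrl2 encodes an atypical receptor that binds chemerin, a chemoattractant of macrophages and dendritic cells, and is known to present it to neighbouring cells. The vehicle arrays gave 7.43, 7.33 and 7.33, and all 3 purmorphamine arrays gave 9.16. The treated values had an SD of 0.00054, against 0.057 for the vehicle values. Ccrl2 rose by 1.80 (SE 0.05, 95% interval 1.68 to 1.93, adjusted p = 1.28e-05), or 3.49-fold, at rank 7 of the rises, directly after Cxcr1. Its neighbour Ltf, the lactoferrin gene, differed by -0.05 and was not called.

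The promoters of the 3 raised genes and of Ccr1, the receptor with the largest fall, are shown because these genes moved most. The sequences are the 250 bases before the annotated start, 5′ to 3′ on the gene's strand, from RefSeq on GRCm38.p6. RefSeq sequences matched 8 of the 9 genes. For Ccrl2 the most upstream of its annotated starts is shown. Capitals mark, on either strand, the letters GGGCGG, known as the GC box and bound by factors of the Sp family, or TATAAA, which is the core of the promoter element called the TATA box. They also mark ACTTTCC, which is part of the site of NF-kB. Cxcr1 lies at chr1:74194632-74194881, Ccrl2 at chr9:111057519-111057768, Cxcr4 at chr1:128592300-128592549 and Ccr1 at chr9:123968693-123968942, all on the minus strand.
Cxcr1: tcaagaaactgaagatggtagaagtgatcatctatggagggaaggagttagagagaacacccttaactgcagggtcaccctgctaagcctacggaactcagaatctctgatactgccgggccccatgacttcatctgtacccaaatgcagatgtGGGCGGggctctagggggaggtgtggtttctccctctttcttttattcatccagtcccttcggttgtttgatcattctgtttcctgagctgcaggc
Ccrl2: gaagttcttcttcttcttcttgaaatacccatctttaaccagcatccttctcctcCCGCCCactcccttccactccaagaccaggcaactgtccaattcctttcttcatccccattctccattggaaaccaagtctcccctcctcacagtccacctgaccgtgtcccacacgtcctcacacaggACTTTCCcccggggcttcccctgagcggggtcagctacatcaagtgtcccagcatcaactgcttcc
Cxcr4: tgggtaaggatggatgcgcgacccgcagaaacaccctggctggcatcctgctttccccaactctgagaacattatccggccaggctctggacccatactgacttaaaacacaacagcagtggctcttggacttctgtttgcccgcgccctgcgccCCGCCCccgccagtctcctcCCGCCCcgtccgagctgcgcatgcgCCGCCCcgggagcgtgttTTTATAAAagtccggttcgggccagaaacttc
Ccr1: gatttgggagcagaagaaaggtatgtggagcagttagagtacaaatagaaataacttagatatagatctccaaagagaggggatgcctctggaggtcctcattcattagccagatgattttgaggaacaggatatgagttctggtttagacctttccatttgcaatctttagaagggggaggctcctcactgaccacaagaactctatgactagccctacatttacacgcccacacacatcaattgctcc
The searched windows were 300 bases long, these 250 bases and 50 after the start. The Cxcr4 promoter held a TATA box that reads on both strands with an overlap, its first base 32 bases before the start, and 3 GC boxes at 95, 75 and 50 bases. Cxcr1 had 1 GC box at 96 bases and Ccrl2 had 1 at 195 bases, while ACTTTCC began 66 bases before this start of Ccrl2. Over all 32851 promoter windows, GGGCGG occurred in 35.7%, TATAAA in 13.6% and ACTTTCC in 4.97%. None of these 3 strings occurred in the Ccr1 window or in that of Cxcr2, while Ccr1l1, which fell, had TATAAA at 215 bases. The 3 strings were added after the sequences were seen, so nothing is read from where they occur.

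The core of the Gli site, the sequence that the transcription factors of Hedgehog signalling bind, was searched as GGGTGGT on both strands. Among the receptors with a promoter sequence, it occurred only at Ccrl2, once, between its starts, at chr9:111057302-111057308. It lies 38 and 64 bases before the other annotated starts of that gene. The site is shown with 11 bases on each side (chr9:111057291-111057319, minus strand, GGGTGGT in capitals).
Ccrl2 site: gccagggggtgGGGTGGTgcgtctcggct
The same string occurred in 4.61% of all promoter windows. AP-1 (TGACTCA, 5.20% of windows), the CHOP and ATF4 element in part (TGATGCA, 3.15%) and the MiT factor site (CACGTGA, 3.77%) had no match in the windows of these receptors. A match here is a string of letters in a window, not a bound site.

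Ccr1, a receptor of monocytes, macrophages and neutrophils for several CC chemokines, was the receptor with the largest fall. Its signal was 9.90, 9.85 and 9.88 with vehicle and 8.76, 8.68 and 8.61 with purmorphamine, with no overlap. Ccr1 fell by 1.19 (SE 0.06, 95% interval -1.33 to -1.05, adjusted p = 8.84e-05), a 2.28-fold difference.

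Ccr2, the receptor by which inflammatory monocytes follow Ccl2, was dim. It measured 5.76, 5.83 and 5.95 with vehicle and 5.41, 5.16 and 5.42 with purmorphamine, above the lower quartile of each array and under the median of each. Ccr2 fell by 0.52 (SE 0.09, adjusted p = 0.010).

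Ccr1l1, a gene similar to Ccr1 whose ligand is not established, gave 4.49, 4.47 and 4.51 with vehicle and 3.90, 4.06 and 4.05 with purmorphamine. It fell by 0.49 (SE 0.06, adjusted p = 0.0029), but lay under the lower quartile on all 6 arrays, so its signal may be background. With a linear offset of 50 added before the log, the difference shrank to -0.13 (adjusted p = 0.025), and that of Ccr2 to -0.25 (adjusted p = 0.0053). Ccr1 and Ccr1l1 are close paralogs, and probes may bind transcripts of both, so the fall of Ccr1l1 is uncertain as a separate signal. A filter that drops 0.333 of the genes, the dimmest, removed Ccr2 and Ccr1l1 and kept the other 7 receptors.

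In the RefSeq gene table Ccr1, Ccr1l1, Ccr3 and Ccr2 follow each other in this order on chromosome 9. Ccr3, the eotaxin receptor of eosinophils, also fell, by 0.48, from a vehicle mean of 4.08, which is under the lower quartile too. That call was lost with the linear offset, where the difference was -0.11, and without vehicle replicate 2 or vehicle replicate 3 (adjusted p up to 0.061). All 4 neighbouring genes had lower signals with purmorphamine, 3 of them dim, while Ccrl2, on the same chromosome but not in this row of genes, rose.

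Ccr7, which brings dendritic cells and T cells into lymph nodes, measured 6.83, 6.87 and 6.84 with vehicle and 6.60, 7.09 and 6.62 with purmorphamine. The treated arrays spread on both sides of the control arrays, purmorphamine replicate 2 being the highest of all 6. The difference of -0.07 (95% interval -0.38 to 0.23, adjusted p = 0.77) had the opposite sign without purmorphamine replicate 1 or replicate 3, at 0.01 and 0.002. Without purmorphamine replicate 2 it was -0.23 (adjusted p = 0.052). Of the genes on one side of Ccr7, the neighbour Tns4 fell by 0.25 (adjusted p = 0.044). Igfbp4, the gene beyond Tns4, fell by 0.85 (adjusted p = 6.33e-04). On the other side, Smarce1, 2 places along, differed by 0.08 and was not called.

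**Figure D2:**
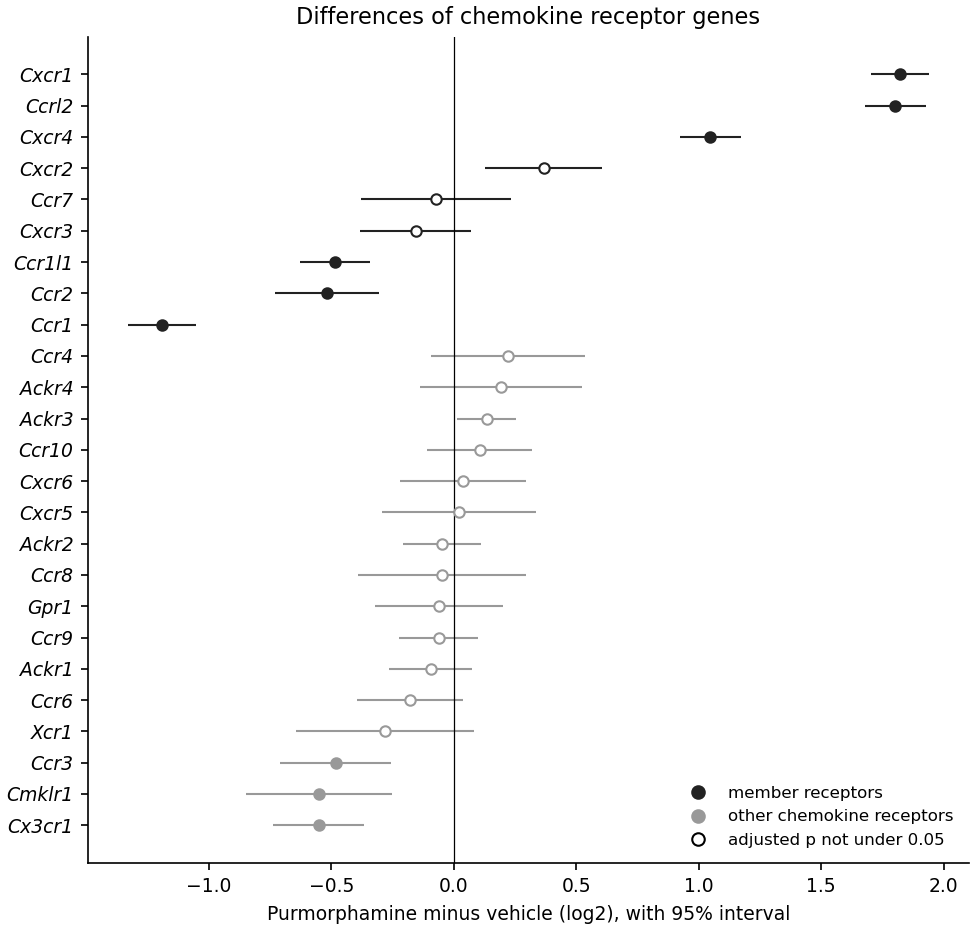
Difference between purmorphamine and vehicle (log2) for the 9 receptors in black and 16 other chemokine and chemerin receptors in grey, with the 95% interval of the limma fit (n = 3 per group). Filled points were called. Cxcr1, Ccrl2 and Cxcr4 stand to the right of all others, and the called grey points are Ccr3, Cmklr1 and Cx3cr1, all on the left.

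Other chemokine and chemerin receptors were listed for comparison. Of 16 measured, 3 fell and 0 rose by limma (18.8% called, against 14.3% of all genes). A rise with an unadjusted p under 0.05 was seen in 1 gene. The median was -0.05, against -0.01 over all genes. Cx3cr1, the fractalkine receptor of monocytes and macrophages, fell by 0.55 (adjusted p = 0.0046), and its arrays read 7.51, 7.44 and 7.66 with vehicle and 6.95, 6.92 and 7.09 with purmorphamine. Cmklr1, the signalling receptor for chemerin, fell by 0.55 (adjusted p = 0.029), from 6.45, 6.90 and 6.85 to 6.14, 6.10 and 6.30. So Ccrl2 and Cmklr1, which share the ligand chemerin, went in opposite directions. A further chemerin receptor, listed here as Gpr1, differed by -0.06 and was not called. Ackr3, the atypical receptor that removes Cxcl12, differed by 0.13 (95% interval 0.01 to 0.25, adjusted p = 0.14). Of the 16 genes, 6 lay under the lower quartile and 12 under the array median, so most of this list was dim. Without vehicle replicate 2 or without vehicle replicate 3, 1 of the 16 was called, and Cmklr1 was not called in 5 of the 6 cases with 1 array left out (adjusted p up to 0.091).

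Ligands of the receptors were measured on the same arrays. Of 16 measured, 5 rose and 5 fell (62.5% called, against 14.3% of all genes), with a median of -0.02. These genes are close relatives in part, such as Cxcl1, Cxcl2 and Cxcl3 or Ccl2, Ccl7 and Ccl12, and some were named after their values had been seen. For Cxcr1 and Cxcr2, the ligand genes Cxcl1, Cxcl2 and Cxcl3 rose by 0.47, 0.44 and 0.48. Ppbp, the precursor of another ligand of Cxcr2, fell by 0.97 (adjusted p = 4.31e-04), from 11.45, 11.51 and 11.49 to 10.52, 10.64 and 10.39. Cxcl5 fell by 0.36. The ligands of this receptor pair therefore did not share a direction. Cxcl2 was not called without vehicle replicate 1 or purmorphamine replicate 2, and Cxcl5 was not called in 5 of 6 cases with 1 array left out, with adjusted p up to 0.052 and 0.076.

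Cxcl12, the ligand of Cxcr4, rose by 0.39 (SE 0.05, adjusted p = 0.0031), from 10.45, 10.44 and 10.47 to 10.89, 10.81 and 10.82. Receptor and ligand signals of this pair were thus both higher with purmorphamine. The ligands of Cxcr3 were not called: Cxcl9 differed by -0.22, Cxcl10 by -0.26 and Cxcl11 by 0.03.

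For Ccr1, the ligand gene Ccl3 rose by 0.84 (SE 0.06, adjusted p = 3.25e-04), from 10.95, 11.09 and 11.05 to 11.85, 11.91 and 11.86, while the receptor fell. Ccl7, a ligand of both Ccr1 and Ccr2, fell by 0.53 (adjusted p = 0.0040). Of the other ligands of Ccr1, Ccl6 differed by 0.11, Ccl9 by -0.07 and Ccl5 by 0.18, and none of these was called. For Ccr2, receptor and ligands were all lower. Ccl12 fell by 3.91 (adjusted p = 6.70e-05), from 8.75, 8.10 and 8.52 to 4.75, 4.33 and 4.57, where the treated arrays lie under the lower quartile and the size of the fall is not exact. Ccl2 fell by 0.34, beside the fall of Ccl7. The listed ligands Ccl19, Ccl21a and Rarres2 (chemerin) are not analysed here.

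**Figure D3:**
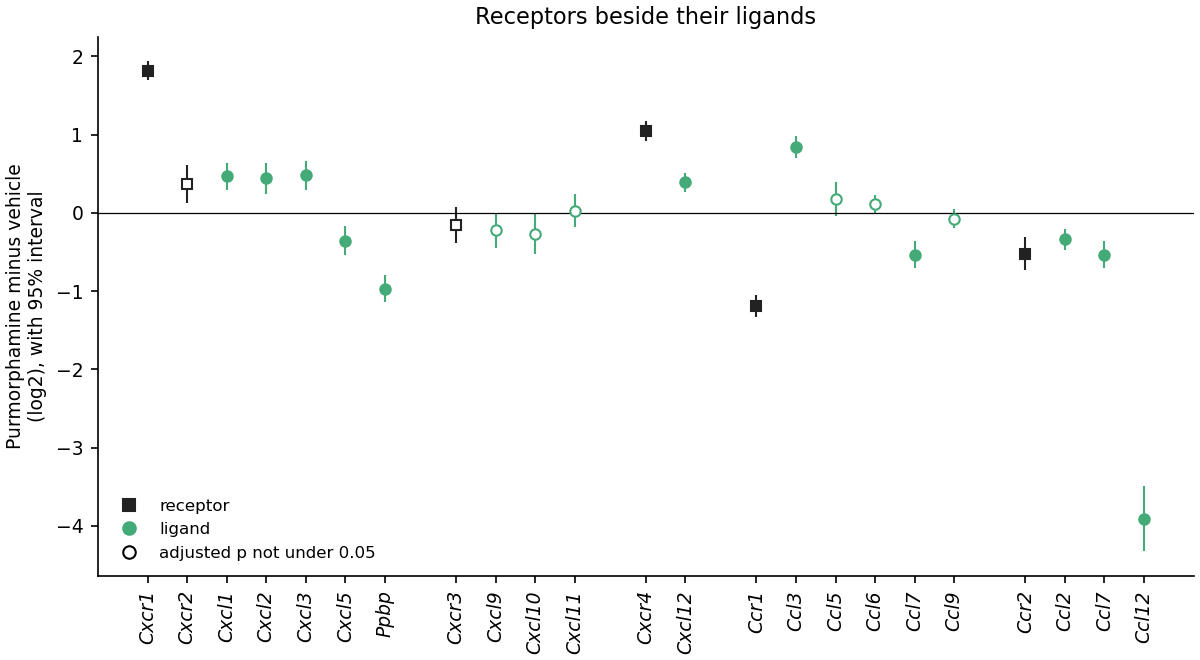
Difference between purmorphamine and vehicle (log2) with 95% intervals for receptors (black squares) and their ligands (green circles), grouped by receptor, n = 3 per group. Open symbols were not called. Cxcl12 stands above 0 beside Cxcr4, Ccl3 above 0 beside the lowered Ccr1, and Ccl12 at -3.91 below Ccr2.

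Genes that act downstream of chemokine receptors were lower in most cases. Of 20 measured, 12 fell (60% of them, against 7.16% of all genes) and 1 rose, with a median of -0.27. Of these 20 genes, 0 lay under the array median, whereas the share over all genes includes dim genes. Arrb2, a beta-arrestin that binds activated receptors and ends their G-protein signal, fell by 0.74 (adjusted p = 8.75e-04), from 9.76, 9.75 and 9.62 to 8.89, 9.06 and 8.98. Grk6, a kinase that marks active receptors for arrestin, fell by 0.41. Pik3cg, the catalytic subunit of phosphoinositide 3-kinase gamma, fell by 0.50. Its regulatory subunit genes went in opposite directions. Pik3r5 rose by 0.60 (adjusted p = 8.86e-04), from 10.16, 10.09 and 10.12 to 10.67, 10.79 and 10.71. Pik3r6 fell by 0.27 (adjusted p = 0.030), and was called in 2 of 6 cases with 1 array left out. Of the cytoskeletal branch, the leukocyte GTPase gene Rac2 fell by 0.49 and Elmo1, part of a complex that activates Rac, by 0.41. The inhibitory G-protein subunit Gnai2 differed by -0.21 and was not called (adjusted p = 0.078). Of the falls, those of Grk3 and Prex1 were not called with any 1 of the 6 arrays left out. Many of these genes are known from leukocytes, and 6 of 11 macrophage markers also fell (54.5%, against 7.16% of all genes). Itgam fell by 1.46 and Csf1r by 0.63. The other 5 were not called, among them Cd68, Marco and Lyz2, which differed by 0.13, 0.20 and 0.05. The part of leukocytes in the downstream falls was not tested.

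Markers of the cells in which these receptors are known were set beside them. Of 11 neutrophil markers, 8 lay under the array median. Ly6g, Camp and Retnlg lay under the lower quartile in their mean, with vehicle means of 4.49, 4.86 and 3.84 and purmorphamine means of 4.21, 4.88 and 3.60. The summed signal of the list was 11.77 to 11.80 with vehicle and 11.40 to 11.49 with purmorphamine, most of it from Mmp8, a collagenase, which fell by 0.43. Csf3r, the receptor for granulocyte colony-stimulating factor, rose by 0.43 but was not called in 5 of 6 cases with 1 array left out. S100a8, at a vehicle mean of 6.90, lay above the array median as Csf3r and Mmp8 did, and differed by -0.38 without being called. The part of neutrophils in the rises of Cxcr1 and Cxcr4 was not tested.

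Macrophage markers were bright, with 0 of 11 under the array median, and 6 fell (54.5%, against 7.16% of all genes). Itgam fell by 1.46, Fcgr1 by 1.79, Siglecf by 0.78 and Csf1r by 0.63, whereas Cd68 differed by 0.13, Marco by 0.20 and Lyz2 by 0.05 and were not called. The summed signal of the list was 15.91 on the vehicle arrays and 15.76 to 15.79 on the purmorphamine arrays. The falls of Ccr1, Ccr2 and Cx3cr1 and the rises of Cxcr1, Ccrl2 and Cxcr4 came with these changes, and the part of macrophages in them was not tested. Of 10 T, B and NK cell markers, 9 lay under the array median and limma called 0 (0%, against 14.3% of all genes). An unadjusted p under 0.05 was seen in 1 of them. With so few genes, most of them dim, nothing is read from this count beside the uncalled Cxcr3 and Ccr7. Of 9 dendritic cell markers 2 rose and 1 fell (33.3% called, against 14.3% of all genes). Fscn1 fell by 0.58 (adjusted p = 0.0013). Itgax, which macrophages also make, rose by 0.31 and Cd83 by 0.30. Cd83 was called in only 2 of 6 cases with 1 array left out. Flt3 and Zbtb46, also on this list, had vehicle means of 5.91, under the array median, and 6.55, above it, and were not called.

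Fibroblast markers were present as the labels say, with vehicle means of 12.77 for Col1a1 and 10.39 for Pdgfra. Of 8, 7 rose (87.5%, against 7.18% of all genes), Pdgfra by 0.83 among them, and Thy1 fell by 0.32. With 1 array left out, Lum was called in 0 of 6 cases and Col1a1 in 2 (adjusted p up to 0.095 and 0.060). Their summed signal was 13.93 to 13.97 with vehicle and 14.33 to 14.42 with purmorphamine. Of 6 endothelial and epithelial markers, 3 rose (50%, against 7.18% of all genes): Pecam1 by 0.30, Cdh5 by 0.34 and Epcam by 0.50. Cdh5 was not called without purmorphamine replicate 2 or replicate 3. The others were not called, with Kdr at 0.06, Sftpc at -0.25 and Scgb1a1 at -0.05. The marker rises in this paragraph accompany those of Cxcr4 and Cxcl12, which mesenchymal and endothelial cells can make. The part of these cells in the rises of Cxcr4 and Cxcl12 was not tested.

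**Figure D4:**
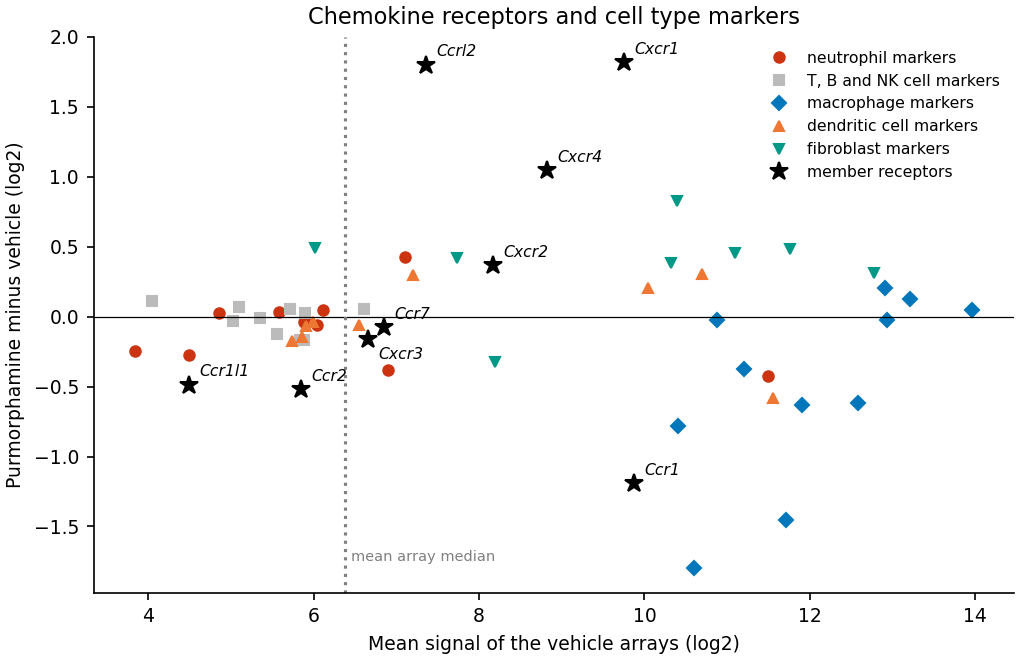
Mean log2 signal of the vehicle arrays against the difference between purmorphamine and vehicle (log2), for the 9 receptors (stars) and markers of 5 cell types (coloured symbols), with the mean array median as a dotted line. Most neutrophil and lymphocyte markers sit left of that line, macrophage markers sit right of it with differences from -1.79 to 0.20, and Cxcr1, Ccrl2 and Cxcr4 lie above all markers.

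Patterns over the 6 arrays were compared by the root mean square distance of each gene's values, taken from its own vehicle mean, which weighs the size of the change as well as its shape. Of all named genes, predicted genes left out, Ccrl2 was the nearest to Cxcr1 and Cxcr1 the nearest to Ccrl2, at a distance of 0.05. Next for Cxcr1 came Slc7a11, the cystine and glutamate antiporter (0.08), H2-M2 (0.20), Mreg (0.22) and Olfr111 (0.22). Next for Ccrl2 came Slc7a11 (0.10), Fbxo32 (0.19), H2-M2 (0.19) and Mreg (0.21). All of these differed by 1.52 to 2.03, from vehicle means between 6.82 and 10.01. Cxcr4 had a closer company at its smaller size: Ralgds, Tnfrsf26, Rilpl2, Gpr137b and Mmp12, the macrophage elastase, lay at 0.03 to 0.06. Ccr1 lay nearest to Msmo1, an enzyme of cholesterol synthesis, at 0.04, and then to Lfng, P2ry6, Tmem273 and Stard4 at 0.05 to 0.08. These distances describe 6 arrays of 2 groups and are set mainly by the difference between the groups.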

How the data were processed

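One array was hybridised for each of the 3 vehicle and 3 purmorphamine wells. The authors deposited log2 values, 1 for each probe set and array. Per the submitters' processing notes they used oligo, RMA and limma, with versions not given in the sources used here. RMA equalises the distributions of all arrays and compresses changes of dim genes. There is no depth on arrays, and precision is limited by how few there were (median SE of a difference 0.07). Of 41345 probe sets, 23521 had 1 gene symbol in the platform annotation, 1814 several and 16010 none. The brightest probe set was kept per gene (1082 genes had more than 1), which left 22180 genes, with no filter on dim genes. The fit used limma 3.58.1 (lmFit, eBayes) in R 4.3.3 with all 6 arrays and no block. Tests were two-sided, p-values were adjusted by Benjamini-Hochberg over the 22180 genes, and the steps were tested on simulated data. Python 3.11.15 and matplotlib 3.10.9 handled sequences and plots.

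The receptors, gene lists and marker lists were chosen with earlier results of these data known. The text names all 9 receptors and the called genes of smallest p among the other receptors, the ligands and the downstream genes. Other genes, and the cell type markers, were named by role or after their values were seen, not by smallest p. The 5 nearest genes by pattern are named for Cxcr1, Ccrl2, Cxcr4 and Ccr1, and only some immediate neighbours are named. Of 7 motifs, 3 (GC box, TATA box, NF-kB) were added after the sequences were seen. Some receptors and ligands are not analysed here. The alternatives were median centring, quantile normalization, a filter that drops 0.333 of genes, the dimmest, a linear offset of 50, the mean of probe sets or every probe set, a variance trend with robust fit, a replicate block, leaving out each array, and other thresholds.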

Additional observations from a re-analysis of the deposited data

How the results depend on the processing

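At an adjusted p under 0.05, the differences of Cxcr1, Ccrl2, Cxcr4, Ccr1, Ccr2, Ccr1l1 and Cxcr3 kept their direction and their side of the threshold under every alternative in which the gene was measured. A fold of at least 1.5 left 4 of the 6 called receptors, without Ccr2 and Ccr1l1. With 1 array left out, Cxcr1 ran from 1.81 to 1.84, Ccrl2 from 1.79 to 1.84, and the number of the 9 receptors called was 6 to 7. Cxcr2 was called in 6 of 14 alternatives, with adjusted p of 0.042 after quantile normalization, 0.022 with the offset, 0.023 without the dimmest genes, 0.0068 with the variance trend and 0.029 with the replicate block. Ccr7 ran from -0.23 to 0.0115 with 1 array left out, with the sign turned without purmorphamine replicate 1 (0.0115) or 3 (0.00179).

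With 1 array left out, 1967 to 2374 of all genes, against 3181 on all 6 arrays, and 1 to 3 of the other receptors were called: fewer samples were fitted. The same fold left 525 of all genes, 3 of the ligands instead of 10, 0 instead of 3 of the other receptors and 2 instead of 13 of the downstream genes, since most of their changes were smaller.

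The replicate numbers were not shown to pair the wells: deviations of same-numbered arrays correlated at 0.106, 0.024 and 0.103, although each array correlated best with its own number (others -0.095 to -0.0076). With the replicate block, 2432 genes and 7 of the 9 receptors were called. The dimness of Ccr1l1, Ccr3 and treated Ccl12 limits the size of their differences.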
